A study of Homo sapiens with 2 samples.

Results

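Transcripts of 10 tubulin isotype genes were measured in HCT116, a human colon cancer cell line of epithelial origin. The genes were taken by symbol from both tables: 4 alpha isotypes (TUBA1A, TUBA1B, TUBA1C and TUBA4A) and 6 beta isotypes (TUBB, TUBB2A, TUBB2B, TUBB3, TUBB4B and TUBB6), which are 10 of 51640 symbols and 11 of 56586 rows, since TUBB3 has 2 rows. The 2 libraries, named PJ and PF, are called biological replicates in the study's design and form a single group, grown in DMEM with serum and antibiotics to near confluence, with no agent or genetic change named in the labels. The labels do not say what the letters stand for or how the cultures were kept apart, so the spread between them may be technical in part. Each gene carries an FPKM value, a count of fragments corrected for transcript length and for the size of the library, with deposited 95% bounds. No estimate of the 10 genes failed in either library.

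Microtubules are hollow polymers of alpha- and beta-tubulin dimers, and they build the mitotic spindle and the transport tracks of the cell. Each subunit is made from several genes, whose products (isotypes) share a nearly invariant core and differ mainly in an acidic tail at the carboxyl end, where most tubulin modifications are added. In dividing epithelial and tumour cells TUBB and TUBB4B usually supply most beta-tubulin, whereas TUBB2A, TUBB2B and TUBB3 are best known from neurons.

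The number of fragments per library is unknown, and the deposited bounds cover the estimate within a library only. Of 10 epithelial marker genes 9 reached 1 FPKM in each library, where 57.3% of protein-coding symbols did. EPCAM, an epithelial adhesion gene, stood at 143 FPKM in PJ and 213 FPKM in PF. Summed over that list the level was 952 FPKM in PJ and 1681 FPKM in PF. Most of this gap came from KRT8, at 280 FPKM in PJ and 760 FPKM in PF. Of the 9 markers compared 2 were slightly higher in PJ. These were KRT19 (325 FPKM in PJ, 306 FPKM in PF) and CLDN3 (5.47 FPKM in PJ, 4.58 FPKM in PF). At least 2-fold lower in PJ were 4 epithelial markers, KRT8, CLDN4, CDH1 and ELF3, where 5.22% of all symbols compared were. The adhesion gene CDH1 was at 1.80 FPKM in PJ and 21.9 FPKM in PF. The part of this difference in the tubulin values below was not tested. Of 12 neuron markers 0 passed in both libraries, with sums of 2.68 FPKM in PJ and 44.7 FPKM in PF, the PF sum being nearly all SYT1 at 42.4 FPKM. The neurofilament gene NEFM was listed at 0 in both. Multiciliated cell markers passed in 1 of 8 cases (summed 5.06 FPKM in PJ and 4.15 FPKM in PF). Fibroblast markers passed in 2 of 10 (summed 6.18 FPKM in PJ and 10.99 FPKM in PF). Immune markers passed in 2 of 8 (summed 15.6 FPKM in PJ and 6.76 FPKM in PF). The higher immune sum in PJ came from CD68, at 12.6 FPKM in PJ and 3.46 FPKM in PF. HLA-DRA was slightly higher in PF (2.34 FPKM in PJ, 2.52 FPKM in PF). The other 6 immune markers were under 1 FPKM in both libraries. In bulk RNA, fewer cells of a type and less RNA per cell cannot be told apart.

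The coding sequences of the beta isotypes were less alike in their last 60 bases than before them, and those ends are shown here because they define the isotypes and because the shared remainder limits how well reads can be told apart. The sequences are the last 60 coding bases, stop codon included, of GENCODE release 29 transcripts (GRCh38), written 5′ to 3′. Capitals mark bases that differ from, or have no counterpart in, TUBB, the beta isotype with the highest mean level in these cells, which is therefore all in lower case. TUBB2A and TUBB2B lie on the minus strand and the other 4 genes on the plus strand.
TUBB: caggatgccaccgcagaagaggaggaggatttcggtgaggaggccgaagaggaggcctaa
TUBB4B: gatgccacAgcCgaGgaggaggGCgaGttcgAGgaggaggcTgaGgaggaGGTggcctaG
TUBB2A: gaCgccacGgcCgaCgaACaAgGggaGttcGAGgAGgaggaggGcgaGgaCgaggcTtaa
TUBB2B: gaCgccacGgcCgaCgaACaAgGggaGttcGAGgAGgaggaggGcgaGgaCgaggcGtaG
TUBB3: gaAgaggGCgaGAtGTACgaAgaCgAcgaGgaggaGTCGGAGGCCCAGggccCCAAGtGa
TUBB6: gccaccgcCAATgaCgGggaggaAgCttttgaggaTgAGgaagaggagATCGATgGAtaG

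TUBB2A and TUBB2B were 96.7% identical over these 60 bases. TUBB3 carried the most changes against TUBB, with 32 of 60 bases in capitals, followed by TUBB6 with 20. Within the alpha class the coding sequences were 84.4% to 97.2% identical over 6 pairs, and within the beta class 81.0% to 98.1% over 15 pairs. For beta pairs the median identity was 66.7% within the last 60 bases, against 87.2% outside them. Alpha and beta coding sequences were 55.1% to 58.1% identical over 24 pairs.

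The share of a gene's coding sequence that also occurs in another gene bears on how far its FPKM rests on the assignment of shared reads. The read length is not given in the sources used here, so windows of 50 bases were searched in all GENCODE transcripts. For TUBB2A 78.5% and for TUBB2B 79.8% of coding windows occurred in another gene, mostly in each other. The shares were 75.7% for TUBA1B, 58.6% for TUBA1A and 57.0% for TUBA1C, again mostly among themselves, and 33.4% for TUBB, chiefly with its processed copy TUBBP1. They were low for TUBB4B (12.2%), TUBA4A (8.55%) and TUBB6 (1.55%), which leaves most of their coding sequence unshared at this length. For TUBB3 the 95.8% was shared with the longer gene model that forms the second row of that symbol. Over whole transcripts the shares were lower, at 65.5% for TUBB2A, 52.2% for TUBB2B, 62.7% for TUBA1B, 41.1% for TUBA1A and 25.1% for TUBA1C. None of these genes shared a window outside the coding part, and TUBB shared 18.2% of its transcript windows. Levels of TUBA1A, TUBA1B and TUBA1C, and of TUBB2A and TUBB2B, are therefore uncertain one against the other, and their sums are given beside them.

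**Figure D1:**
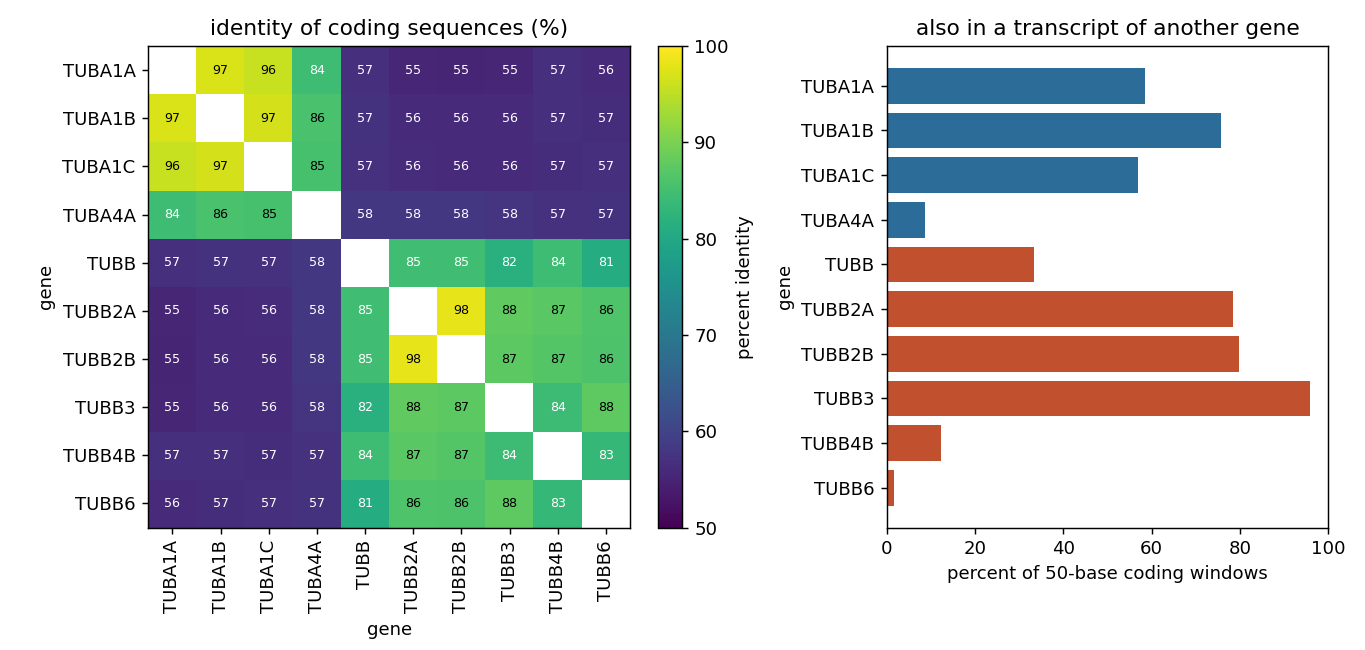
Left, percent identity of the coding sequences of each pair of isotype genes; right, percent of 50-base windows of each coding sequence that also occur in a transcript of another gene. Identity was 98.1% for TUBB2A and TUBB2B, and the shared part ran from 1.55% for TUBB6 to 95.8% for TUBB3.

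All 10 isotypes reached 1 FPKM in each library, where 57.3% of 19038 protein-coding symbols and 27.9% of all symbols passed, and all 10 were at 10 FPKM or more in both, where 31.8% of protein-coding symbols passed. Transcripts of 5 isotypes, TUBA1B, TUBA1C, TUBB, TUBB4B and TUBA1A, reached 100 FPKM in both, against 3.9% of protein-coding symbols. The other 5 were between 13.6 and 155 FPKM.

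Alpha-tubulin transcripts were dominated by 3 genes that lie together on chromosome 12. TUBA1B (ENSG00000123416.10; hg19, chromosome 12, 49521565 to 49525180), the main alpha isotype of dividing cells, was at 1188 FPKM in PJ and 1274 FPKM in PF, a mean of 1231 ± 60.6 (SD, n = 2). This placed it 49th in PJ and 36th in PF among protein-coding symbols. Both estimates lie above their own deposited bounds, which ran from 1053 to 1073 in PJ and from 1119 to 1142 in PF.

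TUBA1C (ENSG00000167553.10; chromosome 12, 49582519 to 49667114), a further widely expressed alpha isotype, was at 727 FPKM in PJ (bounds 728 to 748) and 732 FPKM in PF (731 to 753). TUBA1A (ENSG00000167552.8; chromosome 12, 49578579 to 49583107), the alpha isotype that predominates in developing neurons, was at 411 FPKM in PJ (bounds 409 to 424) and 414 FPKM in PF (412 to 427). The gene spans of TUBA1A and TUBA1C overlap by 589 bases in the tables. The levels of both genes were alike in the libraries, with bounds that overlapped, and the sum of TUBA1A, TUBA1B and TUBA1C was 2326 FPKM in PJ and 2420 FPKM in PF.

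TUBA4A (ENSG00000127824.9; chromosome 2, 220114433 to 220142892), whose product lacks the terminal tyrosine that other alpha isotypes carry when made, was far lower, at 39.3 FPKM in PJ (bounds 36.8 to 42.1) and 36.1 FPKM in PF (33.6 to 38.8). Its span also covers TUBA4B, at 0.351 FPKM in PJ and 0.215 FPKM in PF. It overlaps STK16 by 627 bases, a gene at 26.1 FPKM in PJ and 17.6 FPKM in PF. Of the summed alpha FPKM, TUBA1B held 50.2% in PJ and 51.9% in PF, TUBA1C 30.7% in PJ and 29.8% in PF, TUBA1A 17.4% in PJ and 16.9% in PF, and TUBA4A 1.66% in PJ and 1.47% in PF. The largest difference in an alpha share, PJ minus PF, was that of TUBA1B at -1.636 percentage points.

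The abundant beta isotypes were TUBB and TUBB4B, and their order was not the same in the libraries. TUBB (ENSG00000196230.8; chromosome 6, 30687978 to 30693203), the class I isotype of most dividing cells, was at 645 FPKM in PJ and 707 FPKM in PF, a mean of 676 ± 43.6 (SD, n = 2). TUBB4B (ENSG00000188229.4; chromosome 9, 140135665 to 140138159), a class IV isotype made in most tissues and abundant in ciliated ones, was at 694 FPKM in PJ and 504 FPKM in PF, a mean of 599 ± 135 (SD, n = 2). The ratio of TUBB to TUBB4B was 0.929 in PJ and 1.40 in PF. TUBB lay below its own lower bound in both libraries (650 in PJ and 713 in PF), and TUBB4B below its lower bound of 697 in PJ.

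The 4 less abundant beta isotypes were each 1.85 to 2.15 times as high in PJ as in PF, as ratios of FPKM. TUBB6 (ENSG00000176014.8; chromosome 18, 12307668 to 12344319), a divergent class V isotype, was at 155 FPKM in PJ and 72.0 FPKM in PF. Both TUBB6 estimates lie above their own bounds, of 132 to 140.1 in PJ and 58.3 to 64.4 in PF, and its span overlaps AFG3L2, at 58.6 FPKM in PJ and 56.8 FPKM in PF. TUBB3, the class III isotype used as a neuronal marker, was at 137 FPKM in PJ and 74.3 FPKM in PF. Of the 12 neuron markers 11 were under 1 FPKM in both libraries. The exception, SYT1, was at 0.715 FPKM in PJ and 42.4 FPKM in PF, higher in the library where TUBB3 was lower. Any relation of TUBB3 to these markers was not tested. Of the 2 rows of TUBB3, ENSG00000258947.2 (chromosome 16, 89987800 to 90005169) held 136.5 FPKM in PJ and 73.7 FPKM in PF. The other, ENSG00000198211.8 (89985573 to 90002500), is a longer model that starts within the span of MC1R. It held 0.870 FPKM in PJ and 0.624 FPKM in PF.

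TUBB2A (ENSG00000137267.5; chromosome 6, 3153903 to 3157760), a class II isotype, was at 72.7 FPKM in PJ (bounds 69.7 to 76.0) and 33.8 FPKM in PF (31.9 to 35.7). TUBB2B (ENSG00000137285.8; chromosome 6, 3224517 to 3231964), its near copy, was at 27.8 FPKM in PJ (26.3 to 29.4) and 13.6 FPKM in PF (12.6 to 14.6). The span of TUBB2B overlaps PSMG4 by 328 bases, a gene at 18.9 FPKM in PJ and 18.3 FPKM in PF. TUBB2A exceeded TUBB2B 2.61 times in PJ and 2.49 times in PF, and their sum was 100.5 FPKM in PJ and 47.4 FPKM in PF. The sum was 2.12 times as high in PJ.

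By mean level the order was TUBA1B, TUBA1C, TUBB, TUBB4B, TUBA1A, TUBB6, TUBB3, TUBB2A, TUBA4A and TUBB2B. For 3 neighbouring pairs, TUBB and TUBB4B, TUBB6 and TUBB3, and TUBB2A and TUBA4A, the order in PJ was the reverse of that in PF. Their order is therefore not settled by these libraries. With the middle of the bounds in place of the estimate, TUBB6 held 6.09% and TUBB3 6.63% of the summed beta FPKM. The other 6 neighbouring pairs kept their order across the libraries. TUBA1B over TUBA1C is among them, and that order stays uncertain because of the shared coding windows given above.

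**Figure D2:**
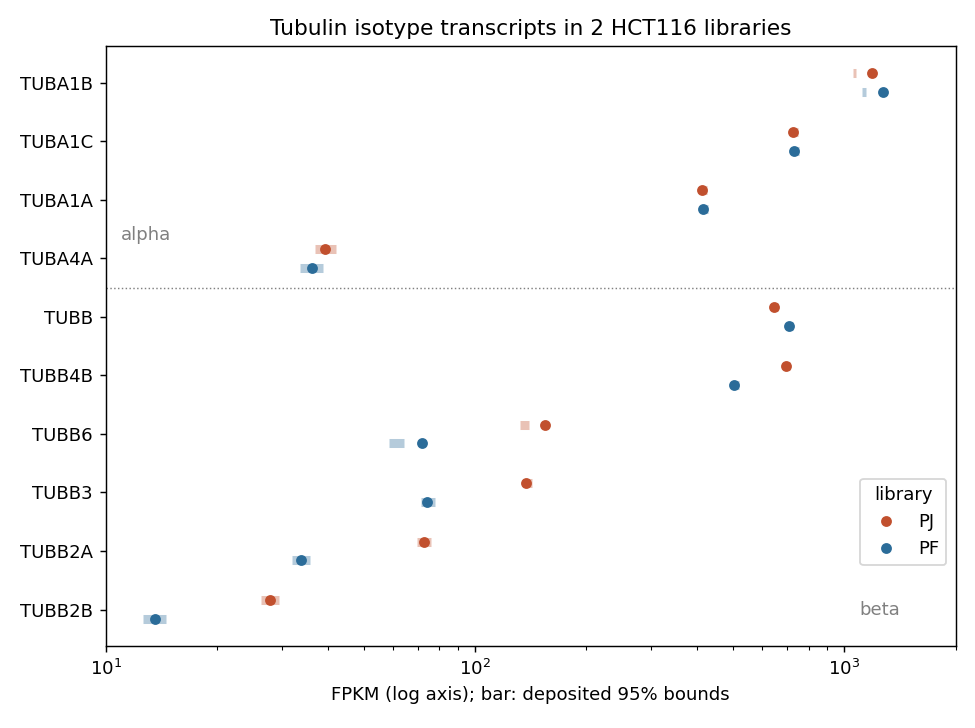
FPKM of each isotype gene on a log axis, with 1 point per library (PJ above PF) and bars for the deposited 95% bounds, which for the most abundant genes are narrower than the points. TUBB2A, TUBB2B, TUBB3 and TUBB6 lie further right in PJ, whereas the alpha isotypes nearly coincide.

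Shares within a class do not depend on how a library was scaled. TUBB made up 37.2% of the beta FPKM in PJ and 50.3% in PF, a difference of -13.1 percentage points between replicates. TUBB4B held 40.1% in PJ and 35.9% in PF, TUBB6 8.94% in PJ and 5.13% in PF, TUBB3 7.93% in PJ and 5.29% in PF, TUBB2A 4.19% in PJ and 2.41% in PF, and TUBB2B 1.61% in PJ and 0.966% in PF. TUBB4A, a beta isotype outside this set at 26.0 FPKM in PJ and 17.6 FPKM in PF, is not counted in these shares. Together the 4 less abundant isotypes of the set held 22.7% of its summed FPKM in PJ and 13.8% in PF. The gene that leads the beta class was thus TUBB4B in PJ and TUBB in PF.

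The summed alpha level was 2366 FPKM in PJ and 2456 FPKM in PF (mean 2411 ± 64.1, SD, n = 2). The summed beta level was 1732 FPKM in PJ and 1404 FPKM in PF (mean 1568 ± 232, SD, n = 2). Alpha transcripts outnumbered beta transcripts 1.37 times in PJ and 1.75 times in PF, as ratios of FPKM sums. The beta sum was 1.23 times and the alpha sum 0.963 times as high in PJ as in PF. Relative to the median ratio of all expressed symbols these were 1.04 for beta and 0.811 for alpha, so which class carried the difference depends on the scaling.

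**Figure D3:**
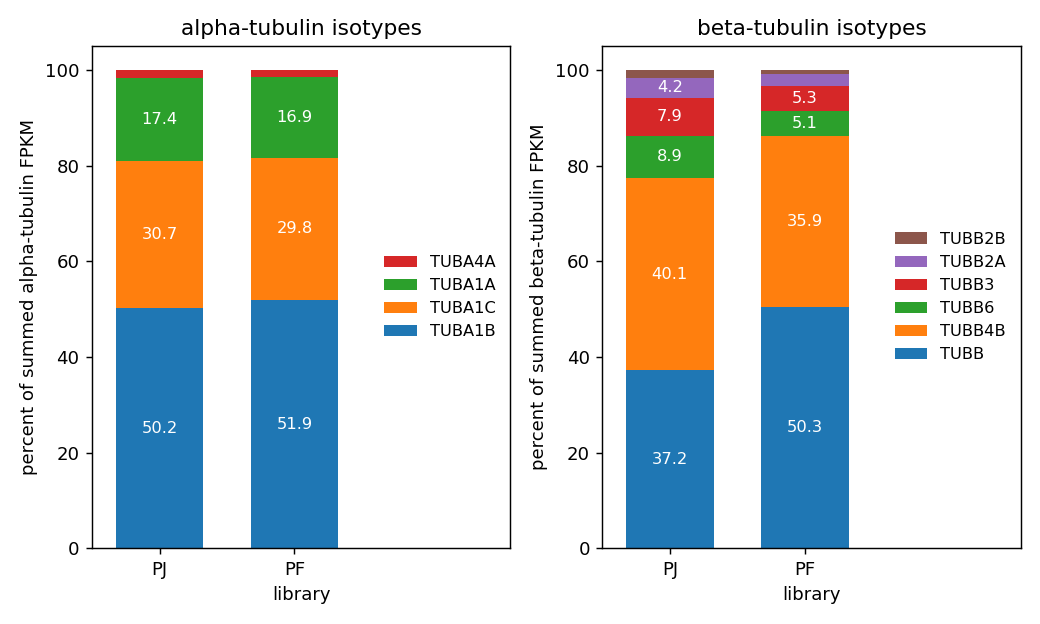
Stacked bars of each isotype's percent of the summed FPKM of its class, alpha left and beta right, with PJ left of PF. The alpha bars are nearly the same, whereas TUBB holds 37.2% of the beta bar in PJ and 50.3% in PF.

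On the log2 scale of FPKM plus a pseudocount of 1, PJ over PF, the isotypes ran from -0.13 for TUBB to 1.09 for TUBB6. TUBB6 and TUBB2A (1.08) were at least 2-fold higher in PJ, 2 of 10 isotypes, where 10.4% of 15736 symbols averaging at least 1 FPKM were. TUBB2B, at 0.99 on this scale, and TUBB3, at 0.88, were just under that threshold. No isotype was at least 2-fold lower, where 5.22% of symbols were. The other ratios were 0.46 for TUBB4B, 0.12 for TUBA4A, -0.01 for TUBA1C and TUBA1A, and -0.10 for TUBA1B. The median over the 4 alpha isotypes was -0.01 and over the 6 beta isotypes 0.93, beside 0.22 over all symbols compared. With a single library on each side there is no replicate check of these differences and no p-value.

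Most symbols were higher in PJ, with a median ratio of 1.19 (0.25 on the log2 scale) over 14404 symbols that reached 1 FPKM in each library. With this shift divided out, 0 of the 10 isotypes remained 2-fold higher, where 6.22% of symbols were, and 0 were 2-fold lower, where 7.24% were; over all symbols the split was 964 higher and 1123 lower, against 1641 and 821 as deposited. Relative to the shift TUBB6 stood at 0.85, TUBB2A at 0.84, TUBB2B at 0.75, TUBB3 at 0.63 and TUBB4B at 0.22, and all 4 alpha isotypes and TUBB were below 0, from -0.12 for TUBA4A to -0.38 for TUBB. The direction for TUBA4A therefore depends on the scaling. Deposited bounds were apart with PJ above for 5 beta isotypes, all but TUBB, where 44.5% of symbols showed this, and with PJ below for TUBB and TUBA1B, where 18.2% did. With the shift divided out of the bounds, PJ was above for the same 5 beta isotypes, where 30% of symbols showed this, and below for TUBB, TUBA1A, TUBA1B and TUBA1C, where 28.5% did.

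**Figure D4:**
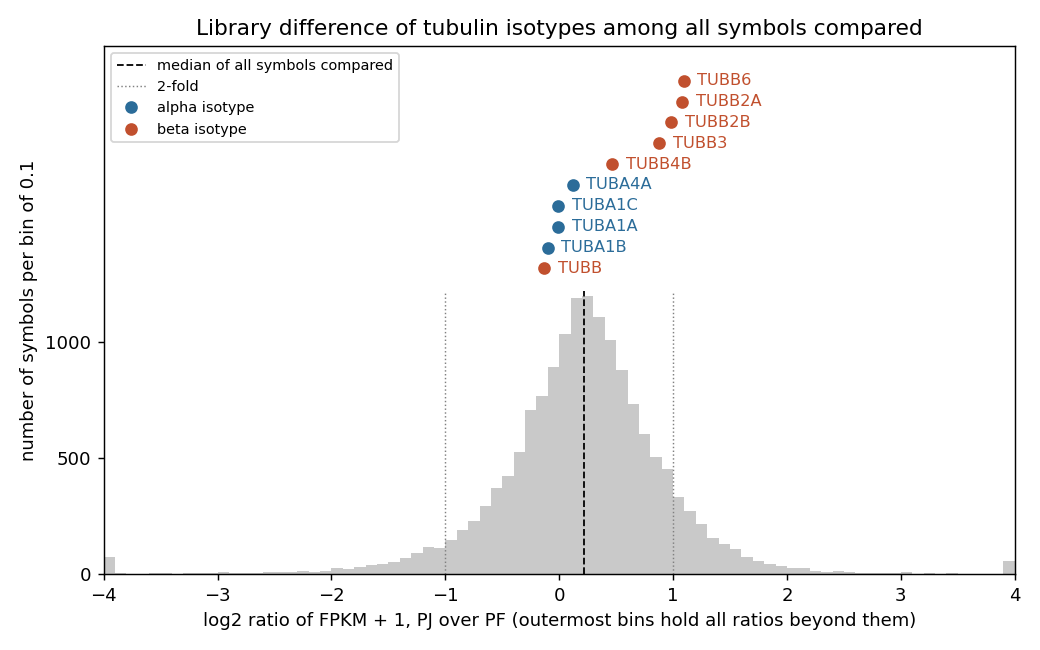
Histogram of the log2 ratio of FPKM + 1, PJ over PF, over 15736 symbols, with the 10 isotypes placed above it at their own ratios and no vertical meaning. TUBB6 and TUBB2A lie past the 2-fold line at 1.09 and 1.08, and the alpha isotypes lie below the median of 0.22.

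The promoters of TUBB2A and TUBB2B are shown because these genes with near-identical coding sequences have separate starts on chromosome 6 and had similar ratios between the libraries. They are the 250 bases before the RefSeq start (GRCh38.p14), read 5′ to 3′ on the minus strand, at chr6:3157545-3157794 for TUBB2A and chr6:3227654-3227903 for TUBB2B; capitals mark the motif CCAAT or its reverse complement ATTGG, which the TUBB2A window lacks.
TUBB2A: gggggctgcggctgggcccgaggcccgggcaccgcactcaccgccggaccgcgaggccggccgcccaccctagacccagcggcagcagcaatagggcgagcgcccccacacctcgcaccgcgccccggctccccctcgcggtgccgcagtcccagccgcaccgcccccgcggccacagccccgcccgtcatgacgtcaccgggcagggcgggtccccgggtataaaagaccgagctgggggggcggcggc
TUBB2B: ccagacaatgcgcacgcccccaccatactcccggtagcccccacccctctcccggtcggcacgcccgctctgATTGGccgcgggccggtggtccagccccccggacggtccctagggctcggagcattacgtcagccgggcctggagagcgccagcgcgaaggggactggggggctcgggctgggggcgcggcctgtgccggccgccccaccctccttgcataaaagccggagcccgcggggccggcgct

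An alignment of both windows, with gaps allowed, gave 49.5% identity, against 98.1% for the coding sequences. No other promoter windows were aligned, so the promoter value has no baseline and shows no conservation. Of the 50-base coding windows of each gene 72.4% occur in the other. The part of shared reads in their similar ratios was not tested. CCAAT occurred on either strand in 1 or more windows of 7 of the 10 isotype genes and in 9 of their 15 windows, where 32.0% of 35116 windows of the same length held it. GGGCGG or its reverse complement CCGCCC occurred in 9 of the 15 windows and in windows of 8 genes, where 42.6% of all windows held it. Some genes have several windows, so the counts of genes cannot be set against the share of all windows. Windows of TUBA1C overlap in part, and the overlapping ones hold the same CCAAT. A match is a description of the letters in the window and shows no binding.

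Other tubulin genes were low or silent apart from 5, where 57.3% of protein-coding symbols reached 1 FPKM in both libraries. Of 13 listed, 5 reached 1 FPKM in each library: TUBG1 (gamma-tubulin, which nucleates microtubules) at 77.9 FPKM in PJ and 48.7 FPKM in PF, TUBG2 at 19.5 FPKM in PJ and 12.9 FPKM in PF, and TUBB4A, a class IV beta isotype of the brain, at 26.0 FPKM in PJ and 17.6 FPKM in PF, with the centriolar tubulins of delta and epsilon type. TUBD1 (12.7 FPKM in PJ, 5.24 FPKM in PF) and TUBE1 (12.2 FPKM in PJ, 3.84 FPKM in PF) were at least 2-fold higher in PJ. These were 2 of 5 genes compared, where 10.4% of all symbols were 2-fold higher. The remaining 8 genes, among them the testis and platelet isotypes, were under 1 FPKM in both, the lowest being TUBA8 at 0.000352 FPKM in PJ and 0.117 FPKM in PF.

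Of 18 further rows named TUBA or TUBB, 4 averaged at least 1 FPKM: TUBB4A and 3 pseudogenes. TUBBP1 (chromosome 8, 30209389 to 30211034), a processed copy of TUBB, was at 87.5 FPKM in PJ and 95.2 FPKM in PF. Together with TUBB it summed to 733 FPKM in PJ and 802 FPKM in PF, a log2 ratio of -0.13 like that of TUBB alone. TUBBP2 was at 14.95 FPKM in PJ and 14.3 FPKM in PF, above its own upper bound in both, and TUBBP5 at 3.19 FPKM in PJ and 3.93 FPKM in PF. How reads were divided between parent genes and such copies is not given in the labels.

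New tubulin is folded by the chaperonin CCT with prefoldin and by the cofactors TBCA to TBCE. All 21 genes listed for this machinery reached 1 FPKM in each library, where 57.3% of protein-coding symbols did. TBCA, a cofactor that binds beta-tubulin, was highest at 1674 FPKM in PJ and 1048 FPKM in PF, ahead of the chaperonin subunit genes CCT3 at 547 FPKM in PJ and 513 FPKM in PF and CCT7 at 475 FPKM in PJ and 322 FPKM in PF. The lowest was CCT6B, a testis form, at 1.13 FPKM in PJ and 1.55 FPKM in PF. One gene, PFDN6 of prefoldin, was at least 2-fold higher in PJ (144 FPKM in PJ and 70.9 FPKM in PF), and none was 2-fold lower. Among all symbols compared 10.4% were higher and 5.22% lower. The list's median log2 ratio was 0.42, beside 0.22 over all symbols.

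All 9 genes listed for the gamma-tubulin ring and its partners were expressed, where 57.3% of protein-coding symbols were. MZT2B led at 282 FPKM in PJ and 222 FPKM in PF. Its near copy MZT2A was at 232 FPKM in PJ and 177 FPKM in PF. TUBGCP3 followed at 25.0 FPKM in PJ and 23.7 FPKM in PF. TUBGCP4, a ring component, was at 21.1 FPKM in PJ and 9.68 FPKM in PF, the only 2-fold difference, where 10.4% of all symbols were higher. TUBGCP6 was lowest at 10.9 FPKM in PJ and 8.84 FPKM in PF. The list's median log2 ratio was 0.35.

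Of 25 genes for tubulin-modifying enzymes and their partners 14 reached 1 FPKM in each library, near the 57.3% of protein-coding symbols that did. In both libraries 8 were under 1 FPKM. TTLL12, a tubulin tyrosine ligase-like gene, was at 70.3 FPKM in PJ and 34.5 FPKM in PF. The deacetylase gene HDAC6 was at 17.3 FPKM in PJ and 21.4 FPKM in PF, and CCDC23, which encodes the partner of the vasohibin detyrosinases, at 17.8 FPKM in PJ and 20.6 FPKM in PF. AGBL1, a tubulin deglutamylase gene, was lowest at 0.000409 FPKM in PJ and 0.00102 FPKM in PF. At least 2-fold higher in PJ were TTLL12 and the acetyltransferase gene ATAT1, at 10.3 FPKM in PJ and 4.58 FPKM in PF. They were 2 of 16 genes compared, near the 10.4% of all symbols that were higher. VASH2, a detyrosinase gene named after its values were seen, was at 0.239 FPKM in PJ and 3.66 FPKM in PF. It was the only one 2-fold lower, where 5.22% of all symbols were. With the shift divided out, TTLL3 (3.52 FPKM in PJ, 7.31 FPKM in PF) was lower as well and none was higher. After that division 7.24% of all symbols were lower and 6.22% higher. The list's median log2 ratio was 0.38.

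Of 25 genes for microtubule-binding and destabilising proteins 23 passed in both libraries, where 57.3% of protein-coding symbols did. None was 2-fold apart, where 10.4% of all symbols were higher and 5.22% lower. STMN1, whose product sequesters tubulin dimers, was at 430 FPKM in PJ and 549 FPKM in PF, the spindle factor gene TPX2 at 97.8 FPKM in PJ and 87.3 FPKM in PF, and MAPRE1, for a plus-end binding protein, at 85.5 FPKM in PJ and 77.6 FPKM in PF. The neuronal stathmin gene STMN4 was lowest at 0.000671 FPKM in PJ and 0.00234 FPKM in PF. The list's median log2 ratio was 0.16.

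Cells destroy tubulin messages when free dimers are in excess: TTC5 recognises the first residues of the nascent chain, and SCAPER links it to the deadenylase. The first 15 coding bases of TUBB and TUBB2A are shown because they encode that signal, with codons 2 to 4 in capitals.
TUBB: atgAGGGAAATCgtg
TUBB2A: atgCGCGAGATCgtg

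TTC5 was at 12.4 FPKM in PJ and 5.25 FPKM in PF, at least 2-fold higher in PJ, and SCAPER at 1.70 FPKM in PJ and 1.31 FPKM in PF. Among all symbols compared 10.4% were 2-fold higher, and 6.22% with the shift divided out. With the shift divided out, TUBE1 was still 2-fold higher, and TTC5, TUBD1, PFDN6, TTLL12, ATAT1 and TUBGCP4 were not.

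**Figure D5:**
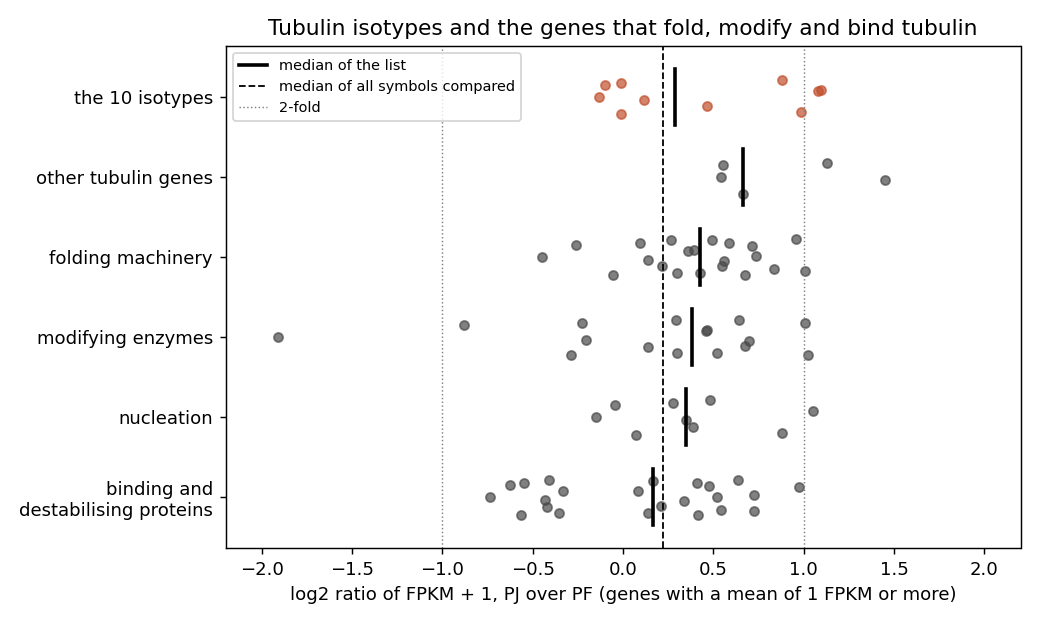
Log2 ratio of FPKM + 1, PJ over PF, of each gene averaging at least 1 FPKM in 6 lists (points), with the median of each list (bar) and of all symbols compared (dashed line, 0.22). The list medians run from 0.16 for binding proteins to 0.67 for the other tubulin genes, whereas the 10 isotypes spread from -0.13 to 1.09.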

How the data were processed

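RNA of 2 HCT116 cultures was sequenced paired-end after TRIzol extraction and Illumina TruSeq V2 library preparation, per the labels' protocols. TopHat2 2.0.8b, TopHat and Cufflinks with hg19 are named in the submitters' processing notes; for the annotation release, Cufflinks version, read length and strand setting, nothing is stated in the labels. Gene FPKM values, their 95% bounds and an estimate status are what the authors deposited, per the file headers. FPKM is scaled to the library's total, so abundant RNAs can lower all other values, and absolute depth is unknown.

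Estimates with status FAIL (20 in PJ, 23 in PF) were treated as missing. FPKM and bounds of rows sharing a symbol were summed. Expressed means 1 FPKM or more in each library; ratios are log2 of FPKM plus 1, PJ over PF, called at 2-fold among symbols averaging at least 1 FPKM. There is 1 group, so no test between groups was made. The script that counts 2-fold differences was checked on simulated data with planted changes well beyond 2-fold. That check says nothing on ratios near 2-fold. Coding sequences came from GENCODE release 29 transcripts (GRCh38), matched by gene identifier for all 10 genes, APPRIS principal isoform first, then the longest; coordinates are the tables' (hg19), starts counted from 1. Promoters came from RefSeq (GRCh38.p14), matched by symbol for 10 genes. Coding ends of the alpha class are not reported here. A comparison planned on protein sequences was made on these coding sequences instead.

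The isotypes and lists were chosen with earlier results of these data known. Beside the isotypes, the text names the 3 highest and the lowest member of each list of tubulin-related genes. It also names members of those lists 2-fold apart averaging at least 5 FPKM, and TUBA or TUBB pseudogenes averaging at least 1 FPKM. Cell type markers were not named by this rule, and a few further genes are named as exceptions. Alternatives were other thresholds, pseudocounts, scalings, filters, bounds in place of estimates, added pseudogenes and single libraries. The normal colon libraries of the design text were not analysed here. Python 3.11.15, numpy 2.4.6, pandas 2.3.3, Biopython 1.88 and matplotlib 3.10.9 were used.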

Additional observations from a re-analysis of the deposited data

How the results depend on the processing

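All 10 isotypes were expressed at thresholds of 0.5, 5 and 10 FPKM, by the lower bounds, and in each library alone. The count at least 2-fold higher in PJ, 2 as deposited, was 0 with the median ratio divided out, 4 at 1.5-fold and 0 at 3-fold; it was 2 or 3 under other pseudocounts, filters and an equal sum over longer genes. None was lower under any of these. Taking the middle of the bounds in place of the estimate gave a summed alpha level of 2293 FPKM against 2411, and a TUBA1B share of 47.8% against 51.1%, since both TUBA1B estimates lie above their bounds. Adding every other TUBA and TUBB row to the class sums moved neither sum nor the TUBA1B and TUBB shares by more than the spread between libraries. Over all symbols the 2-fold counts, 1641 higher and 821 lower, were 611 and 344 with a pseudocount of 5, 4073 and 1727 at 1.5-fold, and 434 and 342 at 3-fold; 964 and 1123 with the median ratio divided out; 1098 were higher and 467 lower among symbols averaging at least 5 FPKM. Dropping the longer TUBB3 row and rescaling the bounds, both chosen after the data were seen, left 2 isotypes 2-fold higher, and gave bounds apart for 5 higher and 4 lower against 5 and 2; over all symbols the shares were 30% and 28.5% against 44.5% and 18.2%. At a threshold of 5 FPKM the expressed genes for modifying enzymes were 9 against 14, and those for folding 20 against 21. No paired analysis was possible because there is only 1 group. With 2 libraries, differences between them cannot be assigned to culture, batch or library preparation, and depth is unknown.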
